A study of Arabidopsis thaliana with 8 samples.

Results

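The seedlings compared here are *Arabidopsis* plants that overexpress *HRE1α* (*HRE1α* OXs) and WT plants of the same ecotype, Col-0. The comparison rests on 4 of the 8 libraries of the series, 2 of *HRE1α* OXs and 2 of WT, chosen by the genotype in the sample labels. It was made over all 22348 genes that passed a filter on low counts, of 33028 names in each count table. The series also holds 2 libraries labelled *HRE1β* OX, for the other splicing variant of the same gene, and 2 of *AtRH17* OXs, which overexpress a DEAD-box RNA helicase. Whole seedlings of all lines were grown without treatment on agar plates with half-strength MS medium and sucrose, in a cycle of 8 h light and 16 h dark at 22 °C, to 14 days by the labels, whereas the study's methods give a younger age. The labels name no hour of harvest. The *HRE1α* OX line came from an earlier study, the promoter of its transgene is not given in the sources used here, and the labels do not say whether the replicates were separate plantings, so that p-values measure the spread between these libraries.

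*HRE1* encodes a transcription factor of ERF group VII, a small family of AP2/ERF proteins. Most group VII factors begin with a cysteine that plant cysteine oxidases (PCOs) oxidize in normal air, which sends the protein to the N-degron pathway for degradation, and under low oxygen these factors persist and switch on genes of fermentation and sugar breakdown. The study's protein sequences place that N-terminal target in HRE1β and not in HRE1α. ERF proteins bind the GCC box, GCCGCC, a sequence first known from promoters of defence genes. The question of the comparison is which transcripts differ in *HRE1α* OXs in normal air.

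Counts were scaled to the library size (CPM) with TMM factors, and each gene was tested with edgeR's quasi-likelihood test on a common fit of WT, *HRE1α* OX and the libraries labelled *HRE1β* OX. Library totals ranged from 25657217 to 30606058 counts over the 8 libraries, and 3 counts corresponded to 0.098 to 0.117 CPM. On log2 CPM the replicates of WT correlated with r = 0.990 and those of *HRE1α* OXs with r = 0.993 across genes, which are not independent replicates. By a chi-square test of their counts, 43.9% of genes differed at p under 0.05 between the WT replicates and 31.7% between the *HRE1α* OX replicates. The replicates within these groups were therefore not second deposits of the same library. Markers of seeds and of flowers and pollen were low in all 4 libraries, with summed levels of 2.197 to 3.72 and 21.75 to 29.3 CPM. Those of leaves summed to 24560 and 28490 CPM in WT and to 31060 and 30030 CPM in *HRE1α* OXs, and those of roots to 2416 and 2201 and to 2503 and 2465 CPM. In whole seedlings, fewer cells of a type and less RNA per cell cannot be told apart.

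*HRE1* itself (AT1G72360) is annotated at chr1:27241696-27242968, forward strand, in TAIR10.1. It had 1401 and 1115 counts in the WT libraries and 4424 and 5397 counts in the *HRE1α* OX libraries, that is 50.1 and 38.5 CPM against 171 and 198 CPM. Both *HRE1α* OX libraries were thus well above both WT libraries, with a log2 fold change of 2.06 (SE 0.109, adjusted p = 1.1e-10, edgeR). Its level was 34.5 and 34.8 CPM in libraries labelled *HRE1β* OX and 43.4 and 35.7 CPM in *AtRH17* OXs, and the direct contrasts gave log2 fold changes of 2.41 and 2.197, with *HRE1α* OXs higher. The last 124 bases of the gene overlap *P40* (AT1G72370), which encodes a 40S ribosomal protein on the opposite strand. *P40* had 487 and 455 CPM in WT and 468 and 433 CPM in *HRE1α* OXs (adjusted p = 0.80, edgeR), and because the use of strand in counting is not stated, reads of *P40* within the overlap cannot be told apart from those of *HRE1*.

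At an adjusted p under 0.05, 361 genes were higher in *HRE1α* OXs than in WT (1.62% of the genes tested) and 365 were lower (1.63%), in all 726 or 3.25%. Of these, 60 were higher by at least 2-fold (0.268%) and 54 lower (0.242%), in all 114 or 0.51%. Most changes were therefore small, and at an unadjusted p under 0.05 there were 3158 genes. The replicates of the groups did not overlap for any of the 726 genes, as for 42.1% of all genes tested. The median log2 fold change over all genes was -0.00432. Of the 726, 676 were protein-coding, 28 were long noncoding RNAs and 2 were microRNA genes. On the nuclear chromosomes the share of genes past the threshold ranged from 2.88% on chromosome 5 to 3.93% on chromosome 4. According to the annotation, 215 of the 726 overlap another gene, and their counts are uncertain where both genes are expressed. The numbers depended on single libraries. Without *HRE1α* OX replicate 1 there were 91 higher and 138 lower genes, without *HRE1α* OX replicate 2 there were 88 and 116, and without WT replicate 2 there were 1009 and 706. With quantile-normalized values and limma, 13 genes were higher and 12 lower.

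**Figure D1:**
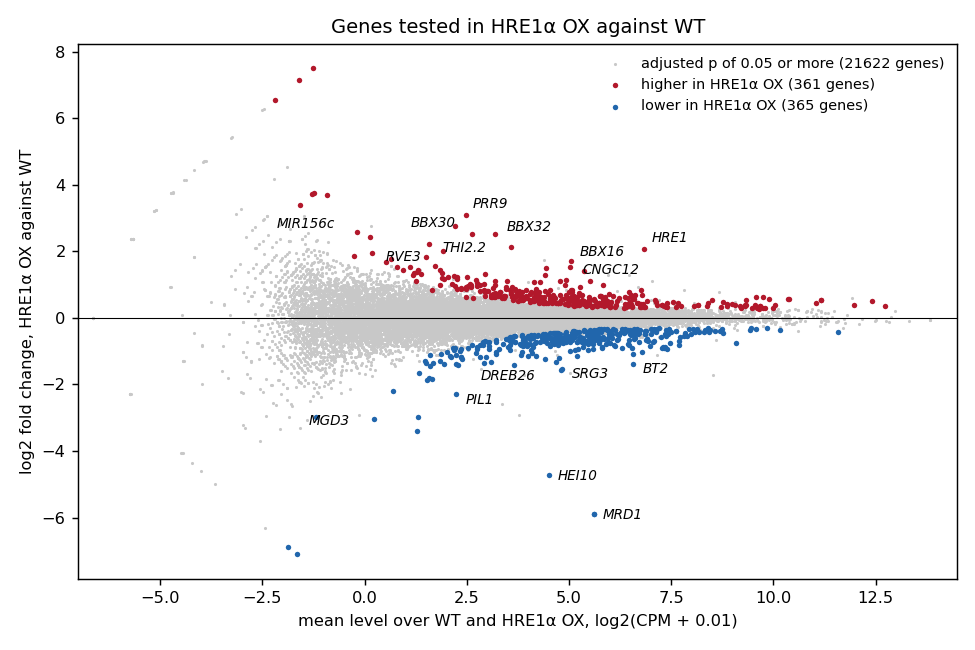
Each point is 1 of the 22348 genes tested, with the mean level over the 4 libraries on the x axis, log2(CPM + 0.01), and the log2 fold change of *HRE1α* OX against WT on the y axis; red points are the 361 higher and blue points the 365 lower genes at an adjusted p under 0.05. Most coloured points lie within 1 log2 unit of 0, and *MRD1* and *HEI10* lie lowest among the genes above 1 CPM.

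The largest rise among genes at 1 CPM or more was that of the clock gene *PRR9*, followed by its relative *AT2G46670*, the microRNA gene *MIR156c* and the B-box genes *BBX30* and *BBX32*, which are described with their groups. *AT2G27420*, a gene for a cysteine proteinase, rose from 0.644 and 1.45 CPM to 4.57 and 5.16 CPM (log2 fold change 2.21, SE 0.337, adjusted p = 0.00019, edgeR). It was higher still in *AtRH17* OXs, at 12.3 and 20.8 CPM, and not apart from the libraries labelled *HRE1β* OX (adjusted p = 0.95, edgeR). *AT2G16005*, with an MD-2-related lipid recognition domain, rose from 0.465 and 0.207 CPM to 2.402 and 1.28 CPM, and the uncharacterized *AT2G30760* rose from 0.536 and 0.380 CPM to 1.55 and 2.01 CPM. The last is low in *HRE1α* OXs beside its mean of 11.9 CPM in the libraries labelled *HRE1β* OX. Among the falls, the noncoding RNA *AT2G08950* went from 3.43 and 5.49 CPM to 0.581 and 0.256 CPM (log2 fold change -3.41, SE 0.455, adjusted p = 2.9e-05, edgeR). The VQ motif gene *AT1G21326* fell from 3.83 and 5.43 CPM to 0.813 and 1.79 CPM, and *PP2-A5*, for a phloem lectin-like protein, fell from 3.58 and 3.97 CPM to 1.201 and 1.208 CPM. An entry named *PS2*, a name that 2 loci share and that was therefore assigned to neither, was at 6.79 and 1.94 CPM in WT and at 0.697 and 0.403 CPM in *HRE1α* OXs. By the rule that chose these genes, each *HRE1α* OX library lay outside the range of the WT pair. Both other lines were also low for *AT2G08950*, *AT1G21326* and *PS2*. The means were 0.298, 0.980 and 0.771 CPM in libraries labelled *HRE1β* OX and 0.700, 0.845 and 0.809 CPM in *AtRH17* OXs. None of these direct contrasts with *HRE1α* OXs passed. For *PP2-A5* only the contrast with *AtRH17* OXs passed, with *HRE1α* OXs lower. For *AT2G16005* only that with libraries labelled *HRE1β* OX passed, with *HRE1α* OXs higher.

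The deepest falls came from 1 locus. *MRD1* (AT1G53480) was at 105 and 87.5 CPM in WT and at 1.51 and 1.72 CPM in *HRE1α* OXs, a log2 fold change of -5.89 (SE 0.397, adjusted p = 0.0029, edgeR). *HEI10*, whose product is required for meiotic crossovers, was at 46.4 and 40.8 CPM in WT and at 1.51 and 1.79 CPM in *HRE1α* OXs. *MRD1* shares 1446 bases with *HEI10* and 1039 bases with the noncoding *AT1G07887*, both on the opposite strand, and *AT1G07887* had nearly the same count as *MRD1* in every library. The 3 names may therefore count the same reads and were taken as 1 locus. The libraries labelled *HRE1β* OX were as low, with a mean of 1.26 CPM for *MRD1*, whereas *AtRH17* OXs had 135 and 128 CPM.

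The pathways that moved were then described by lists of genes. The plot of list shares sets each list against the genome-wide 1.62% higher and 1.63% lower genes. Of the lists with at least 10 genes tested, photosystem, B-box, clock morning and cytokinin genes were most often higher, and shade, carbon starvation, RTFL and phosphate starvation genes were most often lower. The lists marked with an asterisk were made after their genes had been seen to change. The other lists were chosen with earlier results of these data known. The shares of all lists therefore describe them and are not independent evidence.

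**Figure D2:**
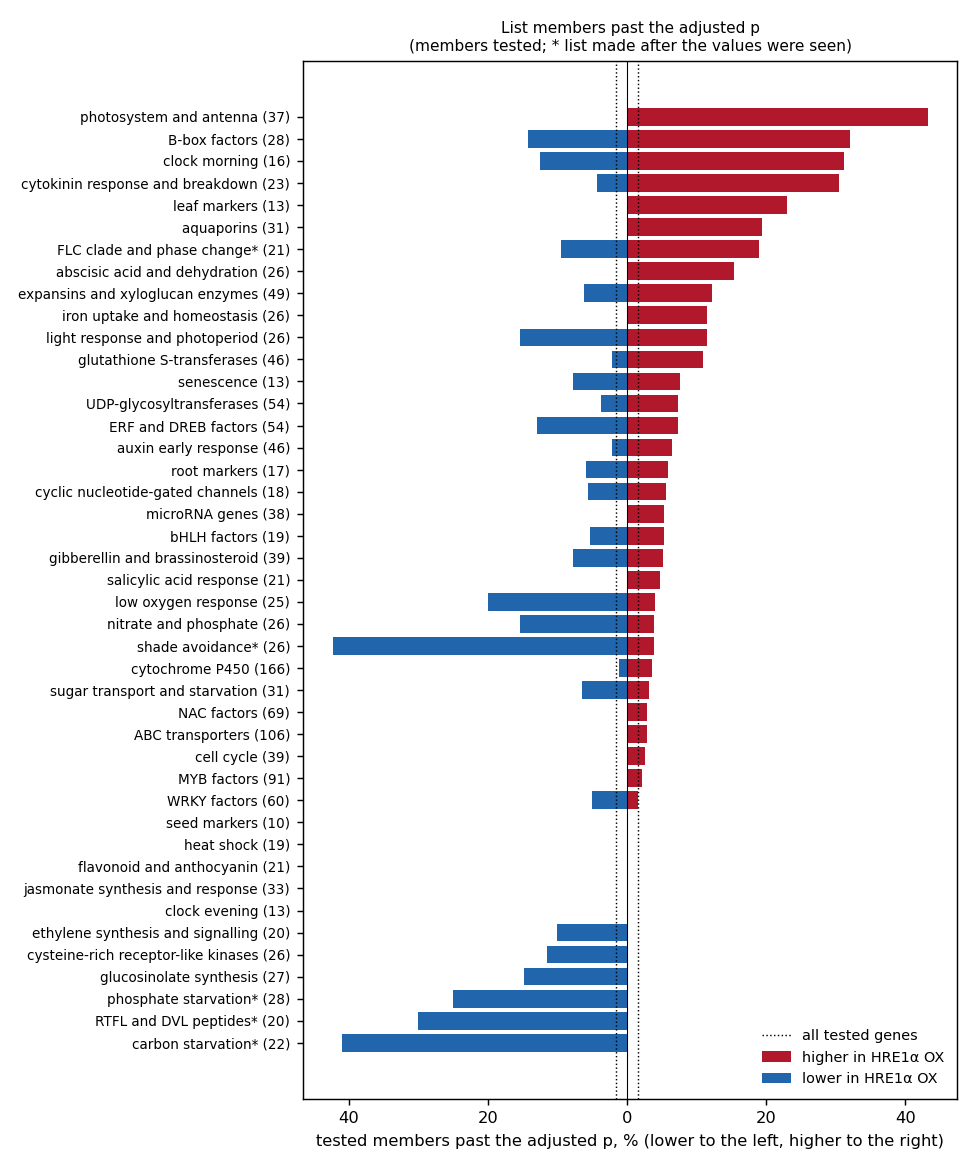
Bars give the percentage of the tested members of each list that were higher (red, to the right) or lower (blue, to the left) in *HRE1α* OX at an adjusted p under 0.05, with the number tested in parentheses; dotted lines mark the 1.62% and 1.63% of all genes. The photosystem list has 16 of 37 genes higher and none lower, the shade avoidance list 1 higher and 11 of 26 lower, and no bar is drawn for the clock evening, jasmonate, flavonoid, heat shock and seed lists, in which no gene passed.

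Genes of the circadian clock that act in the morning formed one of the clearest groups. In the plant clock, the morning factors CCA1 and LHY repress evening genes, the pseudo-response regulators PRR9 and PRR7 repress *CCA1* and *LHY* in turn through the day, and the LNK proteins act as coactivators with RVE factors. Of 16 morning genes, 5 were higher and 2 lower, with a median log2 fold change of 0.16. *PRR9* was at 1.22 and 1.11 CPM in WT and at 10.1 and 9.70 CPM in *HRE1α* OXs (log2 fold change 3.09, SE 0.261, adjusted p = 2.4e-08, edgeR). Both *HRE1α* OX libraries were thus far above both WT libraries, and the call held in all 13 alternatives. In the libraries labelled *HRE1β* OX it was at 3.39 and 2.99 CPM, significantly below *HRE1α* OXs (log2 difference 1.64), and in *AtRH17* OXs at 11.4 and 15.3 CPM. The related *AT2G46670*, also with a CCT motif, followed *PRR9* at 1.22 and 1.14 against 8.52 and 7.65 CPM, but multiple alignments were counted and the 2 genes may share reads.

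*RVE3*, a MYB-like gene of the family of *CCA1*, was at 1.61 and 1.38 CPM in WT and at 5.50 and 6.66 CPM in *HRE1α* OXs (log2 fold change 2.02, adjusted p = 5.8e-05, edgeR). *LNK1* rose from 12.3 and 13.0 CPM to 25.4 and 27.6 CPM, *LNK3* from 52.9 and 52.1 CPM to 86.1 and 79.0 CPM, and *PRR7* from 11.9 and 13.4 CPM to 19.0 and 18.9 CPM. All 5 genes that rose were also higher than in the libraries labelled *HRE1β* OX. In *AtRH17* OXs, however, *RVE3* was at 5.42 and 11.4 CPM, and the direct contrast did not pass (adjusted p = 0.20, edgeR). *RVE1*, which links the clock to auxin synthesis, fell from 175 and 221 CPM to 155 and 146 CPM, and *RVE2* fell from 53.6 and 59.5 CPM to 35.5 and 37.3 CPM. The central genes did not pass the test. *CCA1* was at 155 and 184 CPM in WT and at 200 and 185 CPM in *HRE1α* OXs (adjusted p = 0.39, edgeR), and *LHY* was at 610 and 624 CPM against 668 and 618 CPM (adjusted p = 0.83, edgeR). None of 13 evening genes passed in the common fit or with DESeq2, and 1 was higher with no filter on low counts. In the common fit 3 were under an unadjusted p of 0.05, among them *GI* at 0.501 and 0.657 against 1.05 and 1.39 CPM and *LUX* at 8.90 and 9.64 against 13.9 and 12.9 CPM. The number of higher morning genes ranged from 4 to 8 when single libraries were left out, with 8 without WT replicate 2, and that of lower genes was 1 or 2.

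B-box proteins are zinc finger regulators of light responses and flowering. Of 28 B-box genes tested, 9 were higher and 4 lower, so that the list did not move one way (median log2 fold change -0.046). *BBX30* and *BBX31*, which encode small proteins with a single B-box, rose from 1.97 and 1.66 CPM to 11.3 and 9.56 CPM and from 0.930 and 1.76 CPM to 3.56 and 3.44 CPM. *BBX32* was at 1.43 and 4.01 CPM in WT and at 15.8 and 15.5 CPM in *HRE1α* OXs (log2 fold change 2.51, SE 0.38, adjusted p = 0.015, edgeR), and *BBX16* was at 13.6 and 17.3 CPM and at 51.4 and 49.4 CPM (log2 fold change 1.71, SE 0.121, adjusted p = 2.7e-09, edgeR). The WT replicates of *BBX32* were far apart, but neither reached the level of *HRE1α* OXs.

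The increases of *BBX24* and *BBX25*, a close pair that acts on HY5 in photomorphogenesis, were smaller. *BBX24* rose from 163 and 182 CPM to 232 and 238 CPM and *BBX25* from 95.2 and 105 CPM to 149 and 135 CPM, and both were also above the other 2 lines. *BBX22*, *BBX18* and *BBX28* rose by 0.99, 0.85 and 0.51 on the log2 scale. *BBX14*, *BBX7*, *BBX27* and *BBX17* were lower, and *BBX17* fell from 12.1 and 12.8 CPM to 5.27 and 6.88 CPM. For *BBX30*, *BBX32* and *BBX16* the direct contrasts with the libraries labelled *HRE1β* OX did not pass and gave adjusted p = 0.36, 0.59 and 0.29 (edgeR), and *AtRH17* OXs were higher still for *BBX30* and *BBX16*. Without *HRE1α* OX replicate 1, 3 B-box genes were higher and 1 was lower, and without *HRE1α* OX replicate 2 the numbers were 4 and 3.

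**Figure D3:**
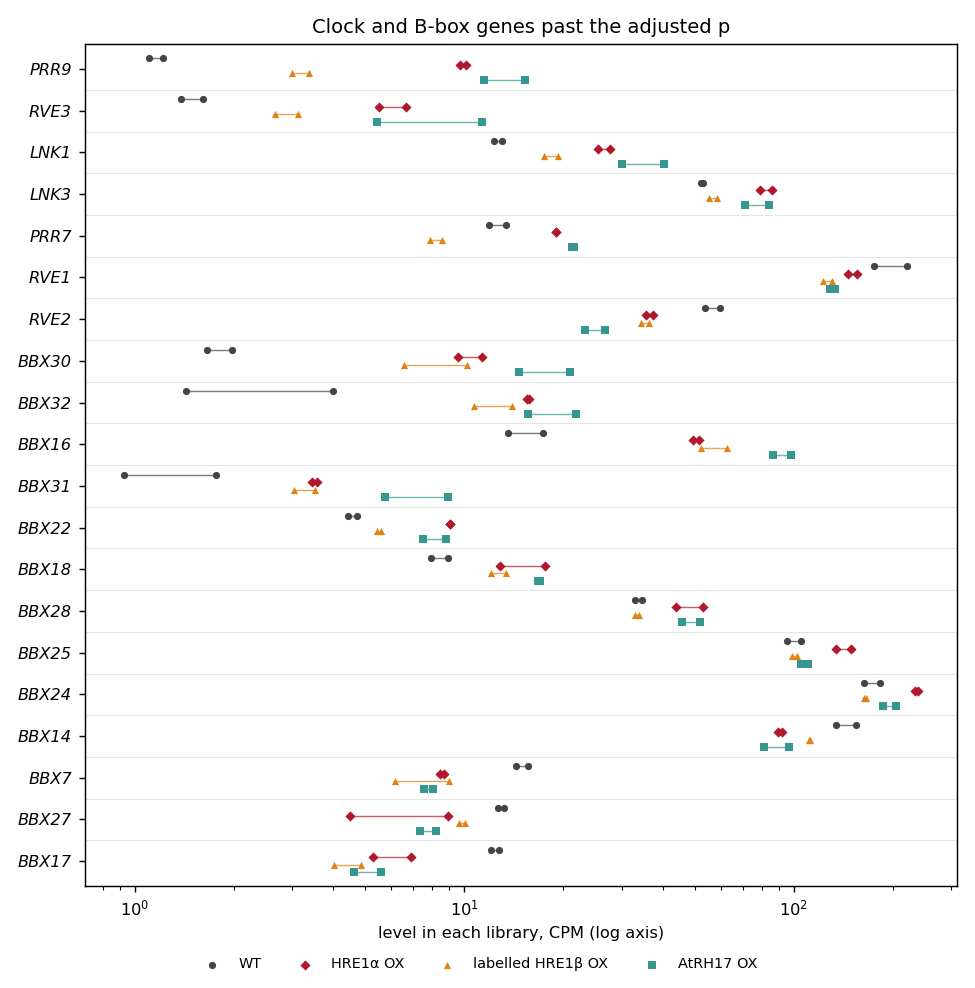
Levels in CPM (log axis) of the 20 clock and B-box genes past the adjusted p, 1 point per library, with a line joining the 2 libraries of a group. *PRR9* lies at 1.11 to 1.22 CPM in WT and 9.70 to 10.1 CPM in *HRE1α* OX, and for *BBX24* and *BBX25* the *HRE1α* OX points are the highest of the 4 groups.

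Genes induced by shade were lower. When neighbours filter the red light, PIF factors activate *PIL1*, *ATHB-2* and other HD-ZIP genes, auxin genes and cell wall enzymes, together with *HFR1* and *PAR1*, whose bHLH-type products restrain the response. Of 26 such genes, 11 were lower and 1 higher, with a median log2 fold change of -0.45. *PIL1* was at 8.69 and 7.02 CPM in WT and at 1.47 and 1.76 CPM in *HRE1α* OXs (log2 fold change -2.28, SE 0.275, adjusted p = 7.3e-06, edgeR). It was also lower than the 4.85 and 3.26 CPM of the libraries labelled *HRE1β* OX, and its call held in all 13 alternatives. *AtRH17* OXs had 2.29 and 1.26 CPM of *PIL1*, and the direct contrast with them did not pass (adjusted p = 0.76, edgeR). *ATHB-2* fell from 23.4 and 20.6 CPM to 10.3 and 9.74 CPM, *HAT2* from 66.7 and 67.5 CPM to 39.6 and 39.7 CPM and *HAT3* from 24.4 and 24.4 CPM to 15.6 and 14.2 CPM.

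The auxin gene *IAA29* fell from 9.87 and 9.19 CPM to 6.12 and 4.65 CPM and was lower than in the libraries labelled *HRE1β* OX. *XTH15*, for a xyloglucan enzyme of the cell wall, fell from 210 and 199 CPM to 105 and 116 CPM, and *ARL*, which promotes cell expansion, from 166 and 159 CPM to 95.7 and 84.6 CPM. The restraining genes *HFR1* and *PAR1* fell with the genes that promote elongation, by 0.60 and 0.69 on the log2 scale. *PRE6*, an atypical bHLH gene also called *KIDARI*, and *LNG1*, which acts on lengthwise leaf growth, fell by 0.52 and 0.51. *PIF7* was the single gene that rose, from 5.97 and 5.25 CPM to 9.37 and 10.03 CPM. For *XTH15*, *ARL* and *PAR1* the other 2 lines were lower still. Leaving out single libraries gave 6 to 11 lower genes.

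Genes known to rise in the dark or when sugar is short were lower as well. Of 22 such genes, 9 were lower and none higher, with a median log2 fold change of -0.30. *BT2*, which encodes a BTB and TAZ domain protein repressed by sugar, had 133 and 141 CPM in WT and 54.1 and 51.3 CPM in *HRE1α* OXs (log2 fold change -1.38, SE 0.0943, adjusted p = 6.8e-10, edgeR). The fall of *BT2* was deeper than in the other lines, with log2 differences of -0.94 from the libraries labelled *HRE1β* OX and -0.79 from *AtRH17* OXs. Its relative *BT1* fell from 227 and 212 CPM to 116 and 115 CPM. *AT1G15670*, for a Kelch repeat F-box protein, fell from 121 and 135 CPM to 63.0 and 58.6 CPM and held in all 13 alternatives, as did *BT2*.

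*EXO*, a brassinosteroid-induced gene of leaf growth, fell from 133 and 160 CPM to 71.2 and 74.0 CPM. *AT3G15450* went from 630 and 735 CPM to 403 and 400 CPM and *AT5G19120* from 252 and 276 CPM to 147 and 150 CPM. *DIN10*, first described as induced by darkness, fell by 0.72 on the log2 scale and the dormancy-associated *AT1G28330* fell by 0.35. *HUP54* is also on the low-oxygen list. *ASN1*, the dark-induced asparagine synthetase gene, was at 51.6 and 85.1 CPM against 48.7 and 51.2 CPM and did not pass the test (adjusted p = 0.57, edgeR). The number of lower genes ranged from 8 without either one of the *HRE1α* OX replicates to 12 without WT replicate 1, and it was 2 with quantile-normalized values and limma.

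**Figure D4:**
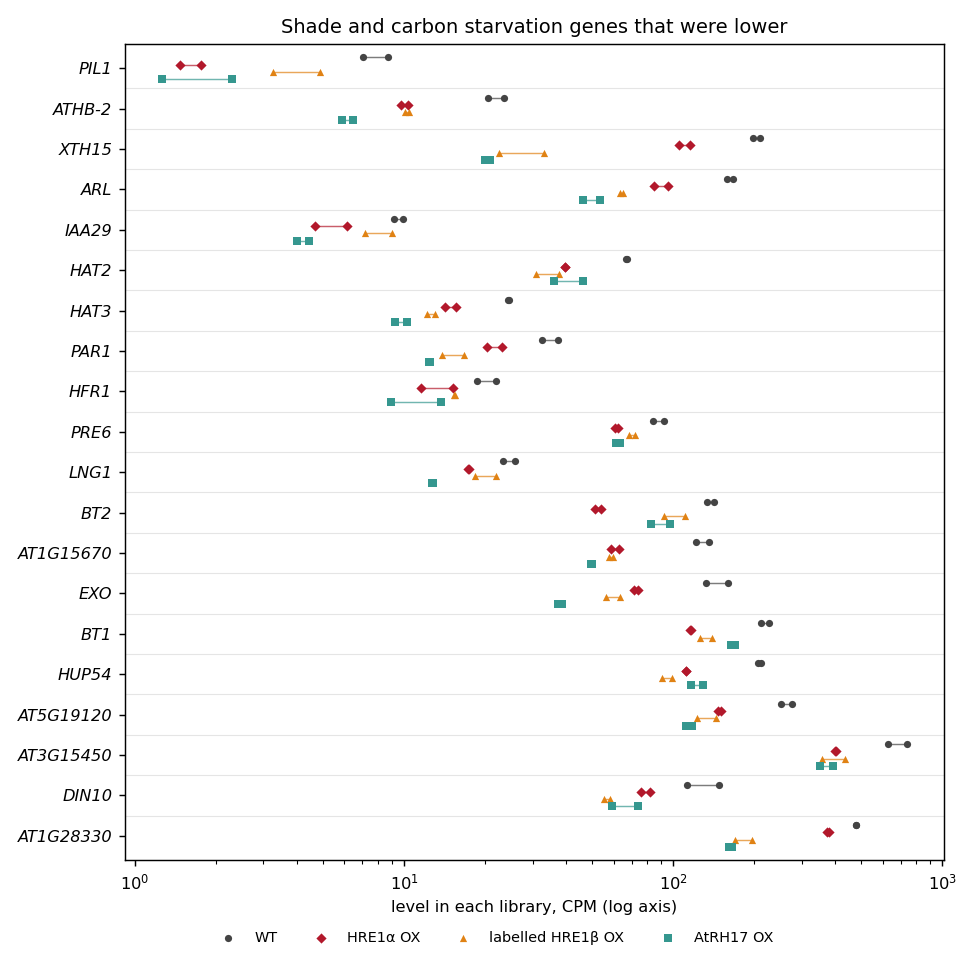
Levels in CPM (log axis) of the 20 shade avoidance and carbon starvation genes that were lower in *HRE1α* OX, 1 point per library, with a line joining the 2 libraries of a group. For each gene both *HRE1α* OX points lie below both WT points, and for *BT2*, at 51.3 and 54.1 CPM, they are the lowest of the 4 groups.

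Small peptides of the RTFL and DVL family, which shorten organs when overexpressed, showed a further fall. Of 20 genes tested, 6 were lower and none higher. *RTFL16* fell from 40.2 and 46.6 CPM to 23.1 and 20.7 CPM (log2 fold change -0.99, SE 0.116, adjusted p = 5.1e-06, edgeR), *RTFL8* from 41.8 and 38.6 CPM to 22.5 and 26.3 CPM and *RTFL17* from 138 and 163 CPM to 100 and 115 CPM. *RTFL14*, *RTFL21* and *RTFL12* were low genes, at 8.54 CPM or less in WT, and fell by 1.39, 1.42 and 2.199 on the log2 scale. For *RTFL8* and *RTFL17* the libraries labelled *HRE1β* OX were lower still. The number of lower genes was 2 without *HRE1α* OX replicate 1 and 4 without *HRE1α* OX replicate 2.

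Genes of the photosystems and their antennae were higher, by small amounts. Light-harvesting proteins (LHCA and LHCB) collect light for photosystems I and II, and PSA and PSB proteins are subunits of the photosystems. Of 37 nuclear genes, 16 were higher and none lower, and 35 had a positive log2 fold change, with a median of 0.27. *LHCB3* was at 599.8 and 599.3 CPM in WT and at 924 and 945 CPM in *HRE1α* OXs (log2 fold change 0.64, SE 0.0748, adjusted p = 4.7e-06, edgeR). *LHCB2.2* rose from 650 and 706 CPM to 1055 and 1019 CPM, *LHCA4* from 731 and 812 CPM to 1141 and 1126 CPM, and *LHCA1* from 494 and 564 CPM to 748 and 779 CPM. The abundant *LHCB1.3* rose from 5767 and 6164 CPM to 7919 and 7488 CPM. Copies of *LHCB1* and *LHCB2* are nearly identical in sequence, so their single values are uncertain.

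Subunits of photosystem I also rose, among them *PSAD-1* from 532 and 587 CPM to 703 and 725 CPM, *PSAD-2*, *PSAH2*, *PSAL* and *PSAE-1*. *PSBO2*, for a protein of the oxygen-evolving complex, differed most between WT replicates, at 44.2 and 123 CPM, and did not pass with 201 and 157 CPM in *HRE1α* OXs (adjusted p = 0.58, edgeR). Of the 16 genes, 12 differed from the libraries labelled *HRE1β* OX and were higher in those. The count of 16 moved widely, to 8 with WT and *HRE1α* OX fitted alone, 10 without WT replicate 1, 29 without WT replicate 2 and 5 without either one of the *HRE1α* OX replicates, and none passed with quantile-normalized values and limma. Leaf markers moved with these genes, at 24560 and 28490 CPM in WT and 31060 and 30030 CPM in *HRE1α* OXs in sum, and 3 of 13 were higher, all of them antenna genes, with none without either one of the *HRE1α* OX replicates and 9 without WT replicate 2. The small subunit genes of Rubisco did not pass, and *RBCS1A* was at 6883 and 8016 against 8713 and 8365 CPM (adjusted p = 0.25, edgeR). The part of leaf content in the photosystem result was not tested.

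Water channels of the aquaporin family also rose, 6 of 31, with none lower. *TIP2;3*, a root channel of the vacuolar membrane, rose from 25.1 and 20.1 CPM to 63.7 and 56.7 CPM (log2 fold change 1.41, SE 0.104, adjusted p = 4.5e-09, edgeR), in all 13 alternatives. The other 2 lines had more of it, with 199.7 and 186 CPM in libraries labelled *HRE1β* OX and 258 and 230.1 CPM in *AtRH17* OXs. *TIP2;2* rose from 73.7 and 71.1 CPM to 119 and 111 CPM. *DELTA-TIP* rose from 3342 and 3670 CPM to 4673 and 4421 CPM and *PIP2E* from 565 and 533 CPM to 733 and 705 CPM, and both were above the other 2 lines. Of 17 root markers, *TIP2;3* was higher and the cell wall gene *PRP3* was lower, and 15 did not pass. Without either *HRE1α* OX replicate, 2 aquaporins were higher.

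Low-oxygen genes were lower more often than higher in *HRE1α* OXs, 5 against 1 of 25 genes, with a median log2 fold change of -0.43. *PCO2*, which encodes a plant cysteine oxidase of the oxygen-sensing pathway, was the gene that rose. It was at 28.5 and 24.5 CPM in WT and at 41.0 and 41.6 CPM in *HRE1α* OXs (log2 fold change 0.64, SE 0.118, adjusted p = 0.0014, edgeR). It had 6.43 and 7.30 CPM in libraries labelled *HRE1β* OX and 11.2 and 11.5 CPM in *AtRH17* OXs, so that *HRE1α* OXs were above all other lines for this gene. Its relative *PCO1* was level, at 114 and 98.3 CPM against 108 and 108 CPM (adjusted p = 0.94, edgeR).

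The genes that fell were of the group named hypoxia-responsive unknown proteins, a wound-induced peptide gene and an ethylene receptor. *HUP54* went from 212 and 207 CPM to 111 and 112 CPM, *HUP32* from 79.4 and 82.3 CPM to 49.7 and 45.8 CPM and *HUP36* from 278 and 253 CPM to 178 and 189 CPM. *WIP4* (AT4G10270) fell by 0.75 and the ethylene receptor gene *ETR2* by 0.44 on the log2 scale. *AT4G05775*, a noncoding RNA that overlaps *WIP4*, fell with it from 24.4 and 21.6 CPM to 11.7 and 10.4 CPM. The genes that serve fermentation did not pass, and in WT their replicates were far apart. *ADH1*, for alcohol dehydrogenase, was at 50.4 and 16.1 CPM in WT and at 18.1 and 15.5 CPM in *HRE1α* OXs (adjusted p = 0.66, edgeR). *PDC1*, for pyruvate decarboxylase, was at 16.6 and 4.84 CPM against 4.26 and 3.19 CPM (adjusted p = 0.52, edgeR).

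The sucrose synthase gene *SUS4* was at 13.4 and 4.08 CPM in WT against 4.03 and 3.41 CPM, and the haemoglobin gene *HB1* at 229 and 162 CPM against 90.4 and 89.9 CPM (adjusted p = 0.056, edgeR). In all 4 of these genes WT replicate 1 was the highest library of the comparison, and for *ADH1* WT replicate 2 lay within the range of *HRE1α* OXs. The log2 fold change of *ADH1* was -1.59 without WT replicate 2 (adjusted p = 1.5e-14, edgeR) and 0.055 without WT replicate 1 (adjusted p = 0.93, edgeR). Without WT replicate 1 the median of the list was -0.21, with 8 genes lower and 1 higher, and without WT replicate 2 it was -0.60, with 11 lower and 2 higher. Without *HRE1α* OX replicate 1 there were 4 lower genes, without replicate 2 there were 3, and none was higher in either case. Among the group VII ERF genes, *RAP2.3* fell from 3628 and 3441 CPM to 2561 and 2706 CPM (log2 fold change -0.42, adjusted p = 0.0010, edgeR) and *RAP2.2* from 123 and 143 CPM to 101 and 103 CPM. *RAP2.12* had 148 and 146 CPM in WT and 135 and 135 CPM in *HRE1α* OXs, and *HRE2* was at or below 1.50 CPM in these 4 libraries. Neither of them passed the test. *RAP2.3* and *RAP2.2* did not pass without either one of the *HRE1α* OX replicates.

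**Figure D5:**
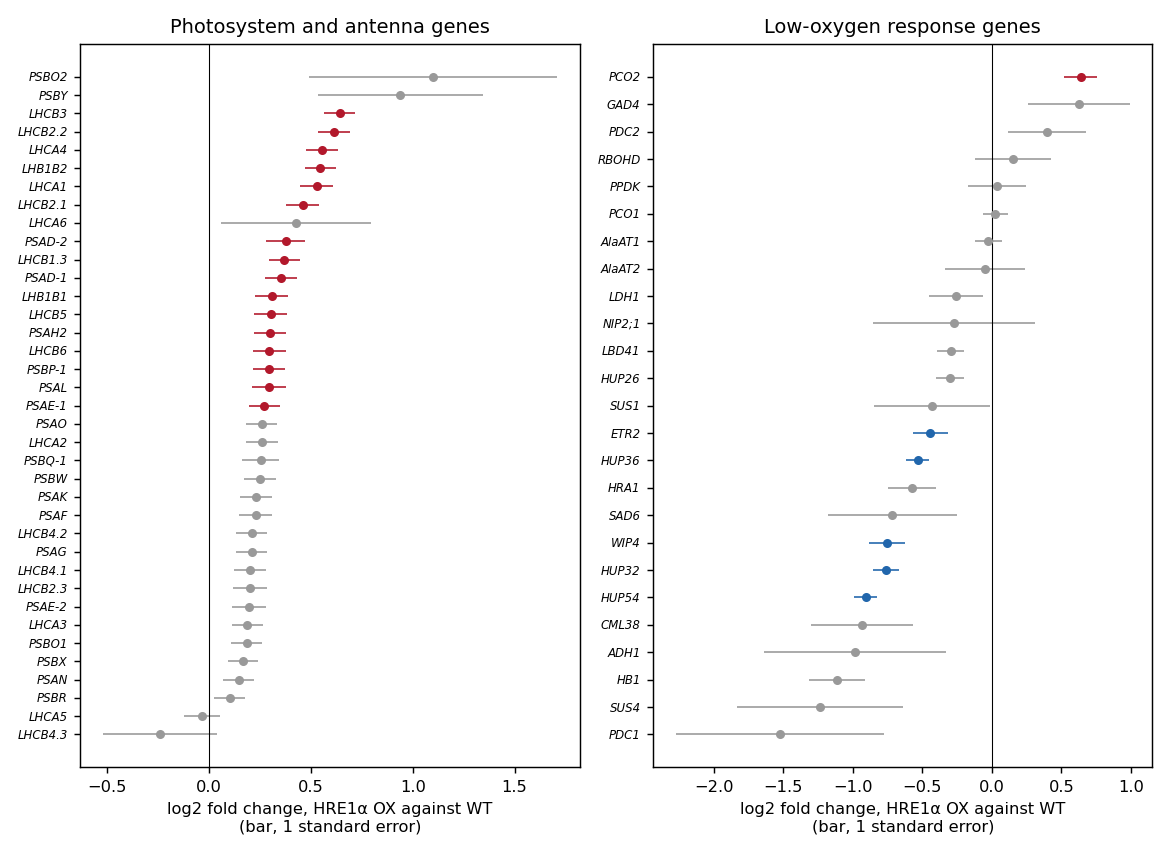
Log2 fold changes of *HRE1α* OX against WT for the 37 photosystem and antenna genes (left) and the 25 low-oxygen genes (right), with bars of 1 standard error; red genes were higher and blue genes lower at an adjusted p under 0.05, and grey genes did not pass. Of the photosystem genes 35 lie above 0, and *PDC1*, *SUS4* and *ADH1* lie well below 0 with wide bars.

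Phosphate starvation genes were lower. When phosphate is short, the factor PHR1 binds the sequence GNATATNC and activates transporters, phosphatases and enzymes that replace phospholipids. Of 28 such genes, 7 were lower and none higher, with a median log2 fold change of -0.58, and 3 had a positive value. *SRG3*, which encodes a glycerophosphodiester phosphodiesterase, was at 51.7 and 33.5 CPM in WT and at 14.8 and 14.4 CPM in *HRE1α* OXs (log2 fold change -1.54, SE 0.19, adjusted p = 0.00058, edgeR). It shares 681 bases with *AT3G02030* on the opposite strand, which also fell by at least 2-fold. Reads within this overlap cannot be assigned to either gene. *G3Pp1*, for a glycerol-3-phosphate permease, fell from 108 and 96.3 CPM to 55.0 and 54.7 CPM, and the transporter gene *PHT1;4* from 22.4 and 22.2 CPM to 12.8 and 11.6 CPM. *PHO1;H1*, a relative of the phosphate exporter *PHO1*, fell from 14.6 and 10.5 CPM to 6.55 and 5.38 CPM.

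*MGD3*, for an enzyme of galactolipid synthesis, was at 3.397 and 0.726 CPM against 0.271 and 0.220 CPM, the phosphatase gene *PEPC1* at 5.94 and 3.14 CPM against 1.74 and 0.732 CPM, and *PHT1;2* at 6.94 and 2.83 CPM against 1.74 and 0.989 CPM. *PHT1;2* has a near-identical copy, *PHT1;1*, and its counts are uncertain. *SPX1*, *SPX3* and the noncoding *IPS1*, the usual reporters of the response, did not pass. *IPS1* was at 36.8 and 11.8 CPM in WT and at 3.83 and 2.56 CPM in *HRE1α* OXs (adjusted p = 0.31, edgeR), and *SPX1* at 67.2 and 32.2 CPM against 16.5 and 14.7 CPM (adjusted p = 0.29, edgeR). As for fermentation, WT replicate 1 was the highest library for these genes. Without it the median was -0.28 with 6 genes lower, without WT replicate 2 it was -0.85 with 16 lower, and without *HRE1α* OX replicate 2 there were 2 lower genes.

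In the direct contrast with the libraries labelled *HRE1β* OX none of the 7 genes that fell passed the test, and *SRG3* had 17.9 and 13.85 CPM there (adjusted p = 0.76, edgeR). In *AtRH17* OXs *MGD3* was at 0.458 and 0.977 CPM, *PEPC1* at 0.951 and 1.06 CPM and *PHT1;2* at 0.528 and 0.407 CPM. The direct contrasts with *AtRH17* OXs did not pass for *MGD3* and *PEPC1* (adjusted p = 0.14 and 0.71, edgeR). For *PHT1;2* the *AtRH17* OXs were lower still. To show where GNATATNC stands before the start of genes of this list, the stretches around it are printed for *SRG3* (chr3:350046-350093, reverse strand) and *PHT1;2* (chr5:17415636-17415683, forward strand) as read from the RefSeq TAIR10.1 genome, 5′ to 3′ on the strand of the gene, with the motif in capitals.
SRG3: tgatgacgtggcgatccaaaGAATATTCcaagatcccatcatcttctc
PHT1;2: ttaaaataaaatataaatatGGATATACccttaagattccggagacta
The motif shown begins 63 bases before the start of *SRG3*, where a further match begins at 127 bases, and 42 bases before that of *PHT1;2*. Searched from 250 bases before to 50 bases after the start, GNATATNC on either strand was found in 11 of the 28 genes of the list, in 3 of the 7 that fell, and in 6.13% of all genes with a known start. It was found in 8.17% of all lower and 5.95% of all higher genes. Among the genes that were lower by at least 2-fold it was found in 9 of 53 (17.0%), against 3 of 59 (5.08%) of those that were higher by at least 2-fold. Of these 9, 7 are not on the phosphate list, and they include *MRD1* with *AT1G07887* and *AT4G05185* with *AT4G05195*, so that the 9 are not separate loci. The motif was searched after the values were seen, and a match is not evidence of binding.

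Of 23 genes of cytokinin response and breakdown, 7 were higher and 1 was lower, with a median log2 fold change of 0.31. Type-A response regulators (ARR) are rapid targets of cytokinin that damp its signal. *ARR15* rose from 1.001 and 1.45 CPM to 4.26 and 4.50 CPM (log2 fold change 1.83, SE 0.351, adjusted p = 0.0022, edgeR). *ARR7* rose from 20.7 and 21.5 CPM to 33.9 and 34.2 CPM, *ARR4* from 80.5 and 74.5 CPM to 116 and 112 CPM and *ARR9* from 56.1 and 49.6 CPM to 69.7 and 71.1 CPM. *ARR5* and *ARR6* did not pass, at 30.3 and 31.1 against 38.5 and 34.3 CPM and at 53.1 and 56.6 against 52.6 and 47.7 CPM. Of the cytokinin response factors, which are ERF genes, *CRF5* rose from 11.7 and 14.3 CPM to 22.6 and 24.9 CPM and *CRF2* by 0.62 on the log2 scale, whereas *CRF6* fell by 0.48.

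*GNC*, a GATA factor that promotes chlorophyll synthesis, rose from 64.6 and 84.9 CPM to 121 and 122 CPM (log2 fold change 0.70, SE 0.104, adjusted p = 0.00019, edgeR). Its relative *CGA1* was at 44.0 and 58.9 CPM in WT and at 133 and 118 CPM in *HRE1α* OXs, without overlap, but did not pass (adjusted p = 0.061, edgeR). The cytokinin oxidase genes *CKX1* to *CKX7* did not pass. *ARR4*, *ARR7*, *CRF5* and *GNC* were above both other lines in the direct contrasts, and *ARR7* was at 22.2 and 28.8 CPM in libraries labelled *HRE1β* OX and at 10.7 and 10.5 CPM in *AtRH17* OXs. Without *HRE1α* OX replicate 1 there were 3 higher genes on the list, and without replicate 2 there was 1.

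Among regulators of flowering and phase change, 4 of 21 genes were higher and 2 lower, and without either one of the *HRE1α* OX replicates 1 was higher and 2 were lower. *FLC*, the MADS-box repressor of flowering, was at 5.97 and 5.60 CPM in WT and at 10.1 and 10.1 CPM in *HRE1α* OXs (log2 fold change 0.80, SE 0.202, adjusted p = 0.022, edgeR). It was higher than in the libraries labelled *HRE1β* OX, at 2.78 and 3.58 CPM, and than in *AtRH17* OXs, at 5.92 and 4.88 CPM. *AT5G01675*, a noncoding RNA that overlaps *FLC*, had nearly the same level, so that the strand of this signal is not known. *MAF4*, of the same clade, rose from 1.61 and 0.587 CPM to 3.37 and 2.97 CPM, and its neighbour in the clade *MAF5* was at 0.858 and 0.726 against 2.71 and 1.94 CPM (adjusted p = 0.067, edgeR). *RAP2.7*, also called *TOE1*, an AP2-type repressor of flowering, rose from 22.1 and 25.1 CPM to 41.7 and 43.1 CPM and was also above the other lines. *TEM1* and *TEM2*, repressors of the florigen gene *FT*, fell from 52.0 and 51.8 CPM to 28.9 and 31.9 CPM and from 234 and 212 CPM to 131 and 135 CPM.

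*MIR156c*, a precursor gene of the microRNA that keeps plants juvenile, had 9 and 5 counts in WT and 37 and 43 counts in *HRE1α* OXs (log2 fold change 2.59, SE 0.7, adjusted p = 0.038, edgeR). It was low in all other libraries, with 0.488 CPM or less, and *HRE1α* OXs were above both other lines. The call rests on few counts and held in 6 of 12 alternatives. *MIR163* rose from 1.90 and 3.01 CPM to 5.93 and 5.49 CPM and was at 7.71 and 11.0 CPM in *AtRH17* OXs. These reads come from the polyadenylated precursors, not from the mature microRNAs. Of 325 microRNA genes named in the tables, 38 had enough counts to be tested. The mature products of the 2 genes that rose are shown, as annotated by RefSeq, with the seed (bases 2 to 8) in capitals.
miR156c-5p: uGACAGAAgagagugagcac
miR156c-3p: gCUCACUGcucuaucugucaga
miR163: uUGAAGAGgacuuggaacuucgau
They lie at chr4:15415491-15415510 and chr4:15415426-15415447 on the reverse strand and at chr1:24884359-24884382 on the forward strand. Of the targets of miR156, the *SPL* genes tested on this list did not pass, and *SPL3* was at 11.6 and 7.67 CPM in WT and at 11.5 and 9.56 CPM in *HRE1α* OXs.

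Because ERF proteins bind the GCC box, the windows around gene starts were searched for GCCGCC on either strand. It was found in 2.68% of the 21846 genes with a known start, in 9 of 353 genes that were higher (2.55%) and in 4 of 355 that were lower (1.13%). Among the genes that were higher by at least 2-fold, 4 of 59 (6.78%) held it, and none of 53 that were lower by at least 2-fold did. The 4 were *PDF1.2*, *TIP2;3*, *BBX32* and *AT2G30760*, and in the last 3 the sequence lay after the start. In *PDF1.2*, the defensin gene used as a marker of jasmonate and ethylene defence, it begins 222 bases before the start. The stretch is shown with that of *OSM34*, an osmotin-like gene that fell, where it begins 72 bases before the start, at chr5:17907835-17907880 and chr4:7026271-7026316, both on the reverse strand and printed as in the gene, with the GCC box in capitals.
PDF1.2: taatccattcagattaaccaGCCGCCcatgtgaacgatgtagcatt
OSM34: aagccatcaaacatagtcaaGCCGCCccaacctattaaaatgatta
*PDF1.2* had 0 and 0 counts in WT and 12 and 22 counts in *HRE1α* OXs, and *PDF1.3* had 1 and 3 against 28 and 23 counts. These copies are nearly identical and remained at or below 1.085 CPM in these 4 libraries, so that the multiple alignments may be the same reads. *OSM34* was at 51.4 and 41.3 CPM in WT and at 32.4 and 29.7 CPM in *HRE1α* OXs (log2 fold change -0.58, SE 0.117, adjusted p = 0.0038, edgeR), below both other lines. The longer AGCCGCC was found in 0.861% of all genes, 1.70% of the higher and 0.563% of the lower ones. For the evening element AAATATCT the shares were 5.59%, 5.95% and 7.61%, and for the G-box CACGTG 8.23%, 11.0% and 8.17%, both searched after the values were seen.

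Of 9 defence genes listed as GCC box genes, 3 were higher and 1 lower, and of these 4 only *PDF1.2* held GCCGCC in the window searched. A single gene was higher with DESeq2, with at least 10 counts in every library and without either one of the *HRE1α* OX replicates, and none was lower without WT replicate 1 or either *HRE1α* OX replicate. *THI2.2*, for a thionin, an antimicrobial peptide, rose from 4.08 and 4.70 CPM to 21.0 and 17.7 CPM (log2 fold change 2.14, SE 0.169, adjusted p = 7.2e-09, edgeR). Libraries labelled *HRE1β* OX had 14.3 and 17.1 CPM of it, and the direct contrast did not pass (adjusted p = 0.20, edgeR). *AtRH17* OXs had 40.8 and 77.7 CPM and were above *HRE1α* OXs (adjusted p = 0.018, edgeR). The basic chitinase gene *HCHIB* fell from 62.8 and 46.8 CPM to 38.0 and 40.5 CPM and was at 85.9 and 107 CPM in *AtRH17* OXs. Hormone defence lists held few such genes, with 1 of 21 salicylic acid genes higher, which was *WRKY46* at 0.322 and 0.380 against 1.16 and 1.43 CPM. None of 33 jasmonate genes passed in the common fit or with DESeq2, where 8 were under an unadjusted p of 0.05 in the common fit. With no filter on low counts, 1 jasmonate gene was lower. The call of *WRKY46* rests on 9 and 11 counts in WT and held in 6 of 12 alternatives. *WRKY18* and *WRKY22*, both of plant immunity, fell from 19.3 and 17.59 CPM to 5.62 and 8.09 CPM and from 8.90 and 10.8 CPM to 3.87 and 4.91 CPM. *CNGC12*, for a calcium channel of immunity, rose from 15.1 and 18.18 CPM to 49.0 and 48.1 CPM (log2 fold change 1.54, SE 0.113, adjusted p = 2.3e-09, edgeR). The libraries labelled *HRE1β* OX had 42.2 and 46.1 CPM of it, whereas *AtRH17* OXs had 1.09 and 1.02 CPM. Of 26 cysteine-rich receptor-like kinase genes 3 were lower, among them *CRK30* from 7.08 and 4.80 CPM to 2.21 and 3.08 CPM, which was also below the other lines. No gene of this family was lower without either one of the *HRE1α* OX replicates.

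For other hormones few genes passed on each list. Their shares in either direction ranged from 8.7% for auxin to 15.4% for abscisic acid, above the 3.25% of all genes tested. Of 26 genes of abscisic acid and dehydration, 4 were higher and none lower, and 22 had a positive value. A single gene was higher without *HRE1α* OX replicate 1, and without WT replicate 2 the numbers were 7 and 1. *KIN2*, a cold- and abscisic acid-induced gene, rose from 86.3 and 84.2 CPM to 134 and 140 CPM (log2 fold change 0.68, SE 0.0835, adjusted p = 8.6e-06, edgeR) and was above both other lines, and the dehydrin gene *LTI30* rose from 32.5 and 25.2 CPM to 47.0 and 42.9 CPM. *KIN2* resembles *KIN1*, which also rose, and multiple alignments were counted. *PYL6*, an abscisic acid receptor gene that is not on the list, fell from 37.9 and 37.5 CPM to 14.4 and 18.5 CPM. Of 39 gibberellin and brassinosteroid genes 2 were higher and 3 lower. *AIF1*, a bHLH gene that restrains growth under brassinosteroid, rose from 10.7 and 12.1 CPM to 24.2 and 23.5 CPM, and its relative in the pathway *IBH1* fell from 10.3 and 7.33 CPM to 4.76 and 4.54 CPM. Of 46 early auxin genes 3 *SAUR* genes were higher and *IAA29* was lower, and of 20 ethylene genes *ETR2* and *EBF2* were lower. With *HRE1α* OX replicate 2 left out, 1 auxin gene was higher, and no auxin, ethylene or gibberellin and brassinosteroid gene was lower.

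Cell wall genes went both ways, with 6 of 49 expansin and xyloglucan genes higher and 3 lower. *EXPA5* rose from 3.79 and 2.94 CPM to 7.32 and 8.57 CPM and *XTH17* from 9.08 and 8.81 CPM to 16.4 and 16.5 CPM, and *EXPA9* fell from 36.2 and 39.1 CPM to 23.7 and 26.4 CPM and was below the other lines. The counts were 3 and 0 without *HRE1α* OX replicate 1, and 9 and 6 without WT replicate 2. Of 27 genes of glucosinolate synthesis 4 were lower, *MAM1*, *MAM3*, *IMD1* and *CYP79F2*, which act on methionine chain elongation and aliphatic glucosinolates. *MAM3* fell from 70.3 and 66.0 CPM to 44.2 and 48.1 CPM, and 4 of the 27 had a positive value. The number of lower genes was 1 without either one of the *HRE1α* OX replicates and 9 without WT replicate 2. Of 26 iron genes 3 were higher. The iron-deficiency peptide gene *IMA3* rose from 2.25 and 2.52 CPM to 6.31 and 4.36 CPM, beside 48.3 and 45.8 CPM in libraries labelled *HRE1β* OX. No iron gene was higher without *HRE1α* OX replicate 1, and 1 was without replicate 2. Of 46 glutathione S-transferase genes 5 were higher and 1 lower, and *GSTU5* rose from 56.3 and 61.2 CPM to 87.0 and 92.5 CPM, with 2 higher genes without either one of the *HRE1α* OX replicates. None of 21 flavonoid and 19 heat shock genes passed in the common fit or with DESeq2, with 4 and 2 under an unadjusted p of 0.05. With no filter on low counts, 1 gene of each of these lists was higher. Of 39 cell cycle genes 1 was higher, *CYCD1;1*, a share of 2.56% beside the 3.25% of all genes that passed in either direction. Light response and photoperiod genes went both ways, with 3 of 26 higher and 4 lower, among them *CDF3*, a repressor of photoperiodic flowering, which rose from 39.2 and 43.4 CPM to 58.6 and 58.9 CPM, but no gene of this list was higher without either one of the *HRE1α* OX replicates. Of 31 sugar genes 1 was higher and 2 were lower, with the sucrose exporter gene *SWEET13* at 2 and 1 counts in WT and 18 and 23 counts in *HRE1α* OXs, a call that held in 6 of 12 alternatives.

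Of 54 ERF and DREB genes, 4 were higher and 7 lower. Besides the overexpressed *HRE1*, the risers were *CRF2*, *CRF5* and *RAP2.7*. The last is of the AP2 type and is on the list by its symbol. *DREB26* fell from 34.5 and 38.8 CPM to 14.7 and 14.8 CPM (log2 fold change -1.31, SE 0.128, adjusted p = 2.9e-07, edgeR) in all 13 alternatives, and *ESE3* from 6.90 and 8.09 CPM to 4.65 and 3.33 CPM. *AT5G61590*, an AP2/ERF gene that the list did not hold, fell from 56.5 and 60.3 CPM to 26.8 and 32.5 CPM. Of 69 NAC and 91 MYB genes 2 each were higher and none lower. These shares, 2.9% and 2.2%, were not above the 3.25% of all genes tested that passed in either direction. *NAC083*, a repressor of xylem vessel formation, rose from 58.4 and 71.8 CPM to 105 and 96.3 CPM, and *MYB16*, an activator of cuticle formation, from 15.2 and 16.0 CPM to 23.2 and 23.5 CPM, and both were above the other lines. Without *HRE1α* OX replicate 1, 2 ERF and DREB genes were higher and 3 lower, without replicate 2 the numbers were 2 and 2, and no MYB gene was higher in either case.

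The direct contrasts show how far these differences are found in *HRE1α* OXs apart from the other lines. All comparisons with WT share the WT libraries, so that values of the lines against WT are not independent. The direct contrasts in turn reuse the *HRE1α* OX libraries by which genes were called against WT. Genes called through a high or low value there tend to differ from the other lines as well, so these counts are not independent evidence. *HRE1α* OXs were higher than the libraries labelled *HRE1β* OX in 1723 genes (7.71% of the genes tested) and lower in 1895 (8.48%), in all 16.2%. By at least 2-fold they were higher in 169 (0.756%) and lower in 526 (2.35%), in all 3.11%. They were higher than *AtRH17* OXs in 2805 (12.4%) and lower in 3032 (13.4%) of 22602 genes, in all 25.8%, and by at least 2-fold higher in 311 (1.38%) and lower in 805 (3.56%), in all 4.94%. The libraries labelled *HRE1β* OX carried no excess of *HRE1* counts (916 and 1057 against 1401 and 1115 in WT). The study, however, reported raised *HRE1β* transcript in *HRE1β* OXs by quantitative RT-PCR with primers specific to this variant. Its construct holds the open reading frame of *HRE1β*. Whether the counts include transcripts of the transgene was not tested, and counts per gene do not separate the variants. Of the 361 genes higher than in WT, 92 were also higher than in the libraries labelled *HRE1β* OX, and 49 were above both other lines. In 69 of the 361 the libraries labelled *HRE1β* OX were higher still. Of the 365 lower genes, 25 were lower than in those libraries, 16 were below both, and in 123 the libraries labelled *HRE1β* OX were lower still.

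The 49 include *HRE1*, *MIR156c*, *FLC*, *RAP2.7*, *PCO2*, *GNC*, *ARR4*, *ARR7*, *CRF5*, *KIN2*, *BBX24* and *BBX25*. The others with a rise of at least 0.9 on the log2 scale were *AT1G18810*, *AT1G32583*, *AT4G25780*, *AT3G06435* and *AT4G11211*, named after their values were seen. *AT1G18810*, a gene like the phytochrome kinase substrates, rose from 10.9 and 13.7 CPM to 27.8 and 32.7 CPM (log2 fold change 1.301, SE 0.136, adjusted p = 7.9e-07, edgeR). *AT4G25780*, for a secreted protein of the CAP family, rose from 16.3 and 21.9 CPM to 44.2 and 39.7 CPM, against 15.6 and 18.5 CPM in libraries labelled *HRE1β* OX and 17.3 and 22.8 CPM in *AtRH17* OXs. *AT3G06435* was at 44.3 and 31.9 CPM in WT and at 79.4 and 73.1 CPM in *HRE1α* OXs, and at means of 9.62 and 11.9 CPM in the other 2 lines, so that the lines lay on opposite sides of WT. It overlaps *AT3G06436*. The 16 include *BT2*, *OSM34*, *EXPA9*, *ESE3*, *CRK30* and *HCHIB*, with *AT4G22212*, for a defensin-like protein, at 34.8 and 24.6 CPM in WT and at 17.8 and 15.45 CPM in *HRE1α* OXs, and the peroxidase gene *AT5G64120* at 19.7 and 21.5 CPM against 13.2 and 13.8 CPM. The deepest fall of the 16 was that of the uncharacterized *AT2G47885*, from 16 and 28 counts to 1 and 4 counts, which is near the detection level.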

How the data were processed

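RNA of whole seedlings was sequenced with QuantSeq, a 3′ mRNA method that yields fragments near the end of the transcript. The authors aligned reads to TAIR10 with Bowtie2 and deposited raw counts, 1 table per library, made with Bedtools coverage from unique and multiple alignments per gene; versions and the use of strand are not given in the sources used here. Of 33028 names per table, 32593 were assigned to 1 locus of TAIR10.1 and 435 were not; these took 3.68% to 4.09% of counts and were kept under the deposited name.

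From the counts, genes were filtered with filterByExpr, scaled with TMM factors (0.992 to 1.016 in the 6 libraries) and tested with edgeR 4.0.16 in R 4.3.3 (robust quasi-likelihood F test, genotype only, Benjamini-Hochberg adjustment over all genes), with WT, *HRE1α* OX and *HRE1β* OX fitted together. The contrast with *AtRH17* OX came from a fit of all 8 libraries. The SE of a log2 fold change was its size over the root of F. The script was tested on simulated data. Replicate numbers were not used to pair the libraries in this fit. Genes named are *HRE1*, the 12 largest rises and 12 largest falls past 2-fold and adjusted p, without overlap of replicates and with a mean of at least 1 CPM in the higher group, and list members; all others were chosen after their values were seen. The members and lists were chosen with earlier results of these data known, and the lists of phosphate starvation, shade avoidance, carbon starvation, phase change and RTFL peptides after values were seen. Alternatives were DESeq2 1.42.0, upper-quartile factors, quantile-normalized log2(CPM + 1) with limma 3.58.1, no filter, at least 10 counts in every library, other sets of libraries, no organellar genes, a replicate block and leaving out single libraries.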

Additional observations from a re-analysis of the deposited data

How the results depend on the processing

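DESeq2, upper-quartile factors, at least 10 counts in every library, other sets of libraries and leaving out organellar genes left the counts of *HRE1α* OX against WT within 1.5 times, and upper-quartile factors gave 407 higher and 335 lower genes. With no filter there were 545 higher and 560 lower genes. With quantile normalization and limma, 13 were higher and 12 lower at the adjusted p, and 12 and 12 by at least 2-fold. That setting gave 583 higher and 837 lower genes against the libraries labelled *HRE1β* OX, and 1999 lower genes against *AtRH17* OXs. Leaving out single libraries gave 88 to 1009 higher and 116 to 706 lower genes against WT, and by at least 2-fold 27 to 179 and 25 to 124. The most were found without WT replicate 2. Against the libraries labelled *HRE1β* OX the ranges were 722 to 1062 and 839 to 1073, and against *AtRH17* OXs 1658 to 1988 and 1858 to 2145. A left-out library leaves 1 sample in its group, which is then assumed to vary like the others. The cause of these differences was not tested. The share of all genes with the GCC box was 0.861% with AGCCGCC. Of 203 named genes past the adjusted p, 17 kept it in every alternative in which they were tested, and none turned its direction. The log2 fold change of *LHY*, which did not pass, was -0.029 with quantile normalization and ranged from -0.0039 to 0.11 with single libraries left out, and that of *ADH1* ranged from -1.59 without WT replicate 2 to 0.055 without WT replicate 1.

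With the replicate number as a block, 421 genes were higher and 401 lower than in WT, 65 and 61 by at least 2-fold. The contrasts gave 1820 and 1983 genes for the libraries labelled *HRE1β* OX and 2868 and 3096 for *AtRH17* OXs. Deviations of same-numbered libraries from their group means correlated across genes with r = 0.0238 between WT and *HRE1α* OX. Each group gives a single difference between replicates, so this cannot decide whether same-numbered libraries were handled together.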
